A study of Rattus norvegicus with 9 samples.

Results

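The genes examined here encode 6 growth factors (Hgf, Egf, Tgfa, Hbegf, Areg and Fgf21) and 3 growth factor receptors of hepatocytes (Met, Egfr and Fgfr4). The last is Errfi1, a feedback inhibitor of the EGF receptor. They were found as the rows of the array table whose gene symbol is one of these 10 names, which gave 12 probe sets of the 21413 that carry a symbol and 10 genes of 16292. Tgfa and Egfr had 2 probe sets each, and the brighter of them was used as the gene's value. The samples were frozen livers of 9 male Sprague–Dawley rats, 1 array per rat and 3 rats per group. The vehicle group received no CCl4. The CCl4 group received carbon tetrachloride (CCl4), a hepatotoxin that kills hepatocytes around the central veins and scars the liver when given repeatedly, as an olive oil mixture injected into the peritoneum for 8 weeks. The CCl4+Rot group received CCl4 and also rottlerin (Rot), an activator of the large-conductance potassium channel BK, at 2.5 mg per kg from 2 weeks after the first CCl4 injection. These doses and times are those of the study's methods, as the sample labels name the treatments alone. CCl4 was given to both treated groups, so no group shows rottlerin by itself.

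Hepatocyte growth factor (HGF) is made mainly by stellate and endothelial cells of the liver as an inactive chain, is cleaved by serine proteases and binds the receptor kinase MET on hepatocytes. EGF, TGF-alpha, HB-EGF and amphiregulin are made as membrane-bound precursors, are released by ADAM proteases and bind the EGF receptor. MET and the EGF receptor drive the ERK cascade and hepatocyte division after injury or resection, and ERRFI1 (also called MIG6) binds the active EGF receptor kinase and shuts it down. FGFR4 is the main FGF receptor of hepatocytes and represses bile acid synthesis, while FGF21 is a hormone that the liver secretes in fasting under PPAR-alpha and in amino acid shortage or endoplasmic reticulum stress under the transcription factor ATF4.

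The RefSeq promoter of Fgf21 (GRCr8, chr1:105221327-105221626, minus strand, written 5′ to 3′ along the gene) is shown because its nearest expression profiles, given below, belong to ATF4 target genes, and the capitals mark the reverse complement of the ATF4 element TGATGNAA.
Fgf21: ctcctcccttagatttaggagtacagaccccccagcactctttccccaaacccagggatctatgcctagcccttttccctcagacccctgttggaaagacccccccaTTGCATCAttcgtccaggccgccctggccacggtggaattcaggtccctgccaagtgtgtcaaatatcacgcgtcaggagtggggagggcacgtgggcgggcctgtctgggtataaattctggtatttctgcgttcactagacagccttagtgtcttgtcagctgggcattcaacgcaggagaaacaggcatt
Searched on both strands, this element was present in 3.82% of the 27457 rat promoters of the same length. In Fgf21 it lies from 143 to 136 bases before the annotated start. The same promoter holds 1 match to the E-box CACGTG, found in 6.65% of promoters, 1 to the TATA box TATAAA, found in 14.3%, and 2 to the GC box GGGCGG, found in 34.9%. One of the GC boxes shares its first base with the E-box. Of the 16 ATF4 target genes listed for comparison, 15 had a promoter in the table and 3 of these held the element (20.0%). The element with its flanking bases is shown for Fgf21 and these 3 genes, on the strand that reads TGATGNAA, with the element in capitals.
Fgf21: gcctggacgaaTGATGCAAtgggggggtct
Trib3: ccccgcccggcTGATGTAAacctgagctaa
Chac1: cctagcaggagTGATGCAAcggcggagaag
Nupr1: caagccctgtcTGATGCAAtctggcctttt
Fgf21, Chac1 and Nupr1 carry the same 8 letters, and Trib3 differs from them at the base the motif leaves free. No other member holds the element. These are matches of letters and were not tested as binding sites.

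The RefSeq promoter of Egf (GRCr8, chr2:220976248-220976547, minus strand, written along the gene) is shown because Egf was the one member called in any fit.
Egf: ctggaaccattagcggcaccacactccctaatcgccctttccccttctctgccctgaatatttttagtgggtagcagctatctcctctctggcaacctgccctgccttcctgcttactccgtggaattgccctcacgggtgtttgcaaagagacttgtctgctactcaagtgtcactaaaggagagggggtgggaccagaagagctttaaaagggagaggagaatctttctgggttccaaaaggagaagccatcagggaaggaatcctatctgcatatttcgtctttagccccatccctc
It holds none of the 6 motifs searched, which also included the CCAAT box CCAAT, present in 37.7% of promoters, and the AP-1 site TGANTCA, present in 7.33%. It is printed without capitals for that reason.

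The values are log2 signals, and every array also gives each probe set a detection call of present, marginal or absent. A probe set was called changed at a Benjamini-Hochberg adjusted p below 0.05 over 31042 probe sets in limma that also differed by 1.5-fold or more. The array of CCl4 replicate 3 stood apart: 12714 probe sets were present on it against 15550 to 16849 on the other 8, and the median signal of probe sets absent on all the others was 5.72 against 4.09 to 4.59. Its mean log2 signal over 7 hepatocyte markers was 14.26 against 14.68 to 14.87. In whole liver, fewer cells of a type and less RNA per cell cannot be told apart. The sum of the signals of 10 stellate cell markers was 8906 to 14530 in vehicle livers, 20381 to 36349 in CCl4 livers and 30543 to 38941 in CCl4+Rot livers, and each of the 10 had a present call. The sum over 6 cholangiocyte markers, 2 of them with no present call, was 927 to 1068.5, 2634 to 5433 and 1297 to 2445 in the same order. Over 7 mast cell markers, 3 of them with no present call, it was 579 to 712, 840 to 1855 and 1070 to 1872. For these 3 lists the sums of both treated groups lay above those of vehicle. Sums follow the brightest markers, so they do not show that every marker rose. In CCl4 livers, 6 of 10 stellate, 3 of 6 cholangiocyte and 3 of 7 mast cell markers lay above vehicle without overlap. In CCl4+Rot livers, 8, 2 and 2 did, and 1 cholangiocyte marker lay below. Among the cholangiocyte markers Spp1 was the brightest in CCl4 livers, and Krt19 overlapped vehicle in both treated groups. The 4 neutrophil markers, 1 with no present call, summed to 235 to 1169, 561 to 1010 and 1299 to 2145. The part of these shifts in the results below was not tested.

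Egf, the founding ligand of the EGF receptor, was lower in all 6 CCl4-treated livers than in any vehicle liver, and Areg and Hbegf were not reliably detected in any group. The receptors Met, Egfr and Fgfr4 and the inhibitor Errfi1 were detected, and none passed the test. Of the 10 members, 0 were called between CCl4 and vehicle, where 0% of all probe sets were called. Between CCl4+Rot and CCl4, 0 were called, against 0.00322% of all probe sets. Between CCl4+Rot and vehicle, 0 were called, against 0.0258%, and between both CCl4-treated groups and vehicle, 0 were called, against 0.00966%. At an unadjusted p below 0.05, the counts in the same order were 1, 0, 1 and 1 of 10, against 12.4%, 6.63%, 8.31% and 11.2% of all probe sets. The member was Egf each time. Without CCl4 replicate 3 they were 1, 1, 1 and 1, against 11.5%, 6.56%, 11.6% and 13.5%, with Met the member in the first 2 and Egf in the last 2. The limma fit with a trended and robust spread called 0, 0, 1 and 1 member, against 1.12%, 0.00322%, 0.776% and 1.82% of all probe sets, and Egf was the member called. Groups that did not overlap were found for 2, 0, 2 and 1 of the 10 members, against 18.3%, 11.6%, 21.1% and 8.05% of all probe sets, so these shares are near the background. The median log2 change of the members was -0.23 between CCl4 and vehicle, where the median over all probe sets was 0.18, and -0.20 against 0.01 without CCl4 replicate 3. It was -0.02 against -0.12 between CCl4+Rot and CCl4, and -0.13 against 0.01 between CCl4+Rot and vehicle.

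**Figure D1:**
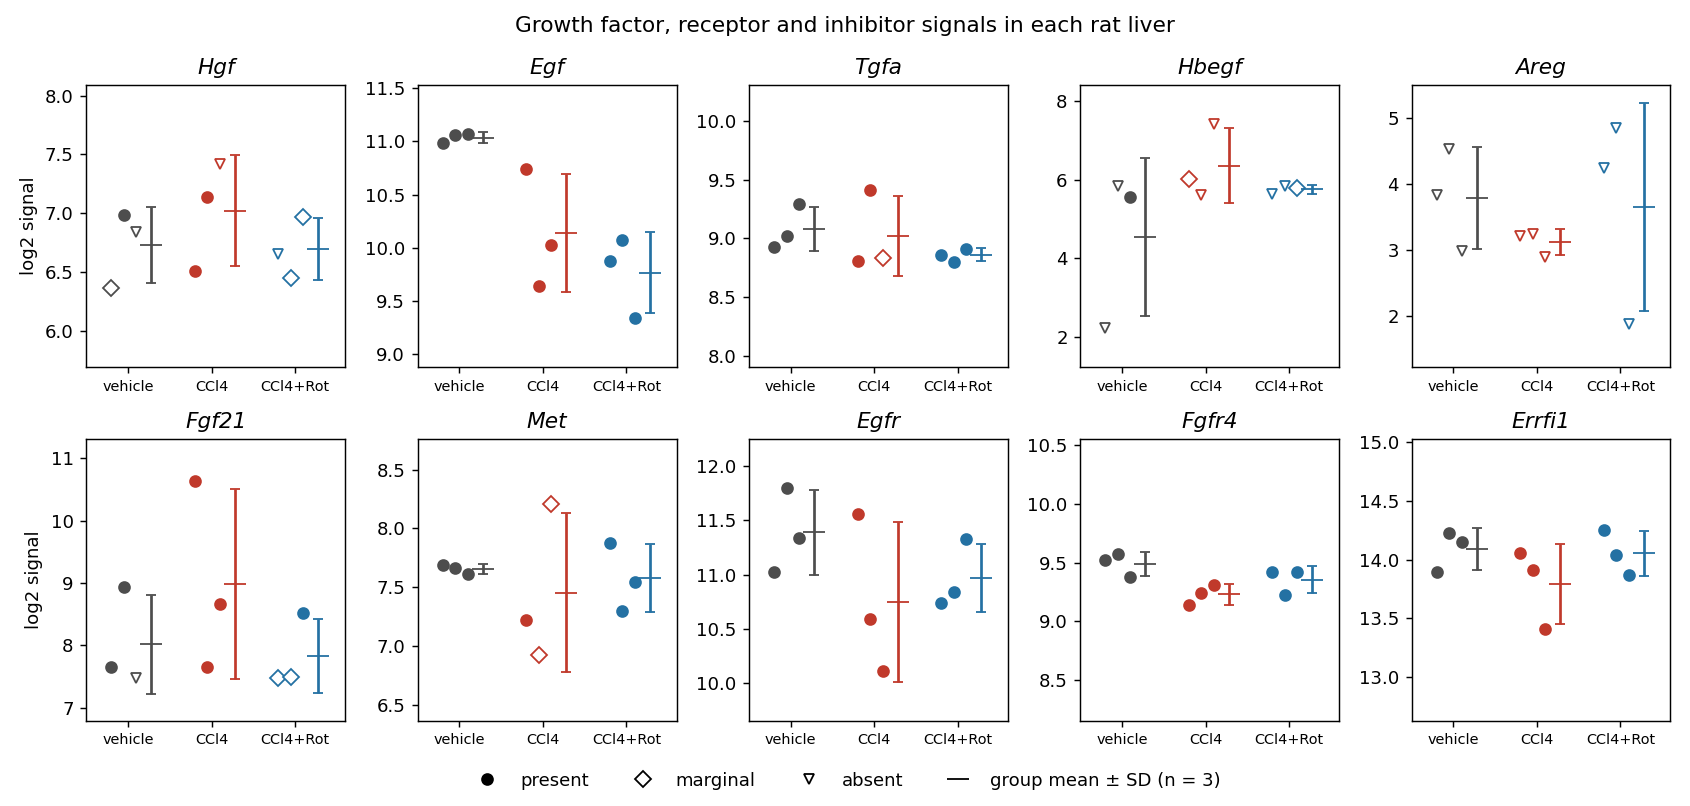
Log2 signal of each gene in every liver, by group, with the scale set for each gene. Filled circles are arrays with a present call, diamonds marginal, triangles absent, and the bars are the group mean ± SD (n = 3). All 6 CCl4-treated livers lie below the vehicle livers for Egf, and Areg was absent on all 9 arrays.

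Among the ligands, Egf had log2 signals of 10.98, 11.06 and 11.07 in the vehicle livers. The CCl4 livers gave 10.74, 9.64 and 10.03, and the CCl4+Rot livers 9.88, 10.07 and 9.34, with present calls on all 9 arrays. The vehicle values lay close together (SD 0.05), CCl4 replicate 1 was the treated liver nearest to them, and the 2 treated groups overlapped. The log2 change was -1.27 ± 0.31 (SE) between CCl4+Rot and vehicle, which is 41.5% of the vehicle signal, with a 95% interval of -2.00 to -0.54. Limma gave it an adjusted p of 0.297, and the trended and robust fit an adjusted p of 0.0333. Between CCl4 and vehicle, the change was -0.90 (95% interval -1.63 to -0.17), with adjusted p values of 0.331 in limma and 0.104 in the trended and robust fit. Over both CCl4-treated groups, Egf was lower by a log2 change of -1.08 ± 0.27 (SE), with adjusted p values of 0.212 in limma and 0.0248 in the trended and robust fit. Without CCl4 replicate 3 the trended and robust fit gave 0.0487 for this comparison, still called, and 0.0503 for CCl4+Rot against vehicle, no longer called. The difference between CCl4+Rot and CCl4 was -0.37 (95% interval -1.10 to 0.36). The only probe set for Egf also names the locus LOC100910178, so its signal cannot be assigned to Egf alone.

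The genes whose profiles over the 9 arrays were nearest to that of Egf were Aspg, which encodes an asparaginase, and Angptl6, a secreted angiopoietin-like protein. Their root mean square differences from the centred Egf profile were 0.164 and 0.251 log2 units, among 9245 genes and against an SD of 0.62 for Egf over the arrays. Both were highest in the vehicle livers.

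Hgf was at the edge of detection. Its log2 signals were 6.36, 6.98 and 6.84 in vehicle livers, 6.51, 7.14 and 7.42 in CCl4 livers and 6.65, 6.45 and 6.97 in CCl4+Rot livers. It had a present call on 1 vehicle array, 2 CCl4 arrays and no CCl4+Rot array, and the groups overlapped. The change between CCl4 and vehicle was 0.29 (95% interval -0.39 to 0.98, limma adjusted p = 0.700), and quantile normalization or centring each array on its median turned it to -0.13 or -0.07. As it was not present in CCl4+Rot, the comparison of that group with CCl4 gives a bound alone. On the group means, this bound puts CCl4 1.26-fold brighter over all arrays. It is 1.09-fold without CCl4 replicate 3, whose own call was absent. The bound does not allow for the spread between livers. Over all arrays the log2 change was -0.33 (95% interval -1.02 to 0.36, limma adjusted p = 0.806), so the direction is not settled. Against vehicle no direction is given, since the change ran from -0.22 to 0.090 as 1 array at a time was left out.

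Tgfa, which binds the EGF receptor with an affinity like that of EGF, gave 8.93, 9.02 and 9.29 in vehicle livers, 8.81, 9.41 and 8.83 in CCl4 livers and 8.86, 8.80 and 8.91 in CCl4+Rot livers. Its nearest profiles were those of Ncoa4, a receptor for ferritin breakdown, and Foxn2, a forkhead transcription factor (root mean square differences of 0.0819 and 0.0971 log2 units). The CCl4+Rot values lay just below the vehicle values without overlap, and the CCl4 values spanned both. The change was -0.06 (95% interval -0.56 to 0.43) between CCl4 and vehicle and -0.22 (95% interval -0.71 to 0.27) between CCl4+Rot and vehicle. The dimmer probe set, present on all 9 arrays, gave the opposite sign with changes of 0.09 and 0.13. The direction for Tgfa therefore depends on the probe set.

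Hbegf and Areg could not be followed. Hbegf, which encodes a heparin-binding EGF receptor ligand, had 1 present call, on vehicle replicate 5, and log2 signals from 2.22 to 7.43. The highest value was that of CCl4 replicate 3, and the call there was absent. Areg, the amphiregulin gene, was absent on all 9 arrays, with log2 signals from 1.88 to 4.85. No fold is given for either.

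Fgf21 had the widest spread within a group among the members that were detected (SD 1.52 in CCl4 livers). Its log2 signals were 7.65, 8.93 and 7.47 in vehicle livers, 10.64, 7.65 and 8.67 in CCl4 livers and 7.48, 7.49 and 8.52 in CCl4+Rot livers. CCl4 replicate 1 was the highest by far, while CCl4 replicate 2 equalled a vehicle liver. It was present on 2 vehicle, 3 CCl4 and 1 CCl4+Rot array. The change was 0.97 (95% interval -0.83 to 2.77, limma adjusted p = 0.625) between CCl4 and vehicle and -1.16 (95% interval -2.96 to 0.65, limma adjusted p = 0.774) between CCl4+Rot and CCl4. Leaving out 1 array at a time moved the first to between 0.14 and 1.64 and the second to between -1.83 and -0.33, with the smallest size in each when CCl4 replicate 1 was left out.

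The profiles nearest to Fgf21 were those of Slc3a2, the heavy chain of an amino acid transporter, and Ddit3, the stress transcription factor CHOP. Their root mean square differences were 0.503 and 0.519 log2 units, against an SD of 1.00 for Fgf21, so the likeness is coarse. All 3 genes were highest in CCl4 replicate 1, where Slc3a2 reached 12.66 and Ddit3 10.80. Between CCl4 and vehicle Slc3a2 was at 0.38 with that array and -0.24 without it, and Ddit3 at 0.95 and 0.53. Both are ATF4 targets on the comparison list. Neither promoter holds TGATGNAA in the window searched.

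**Figure D2:**
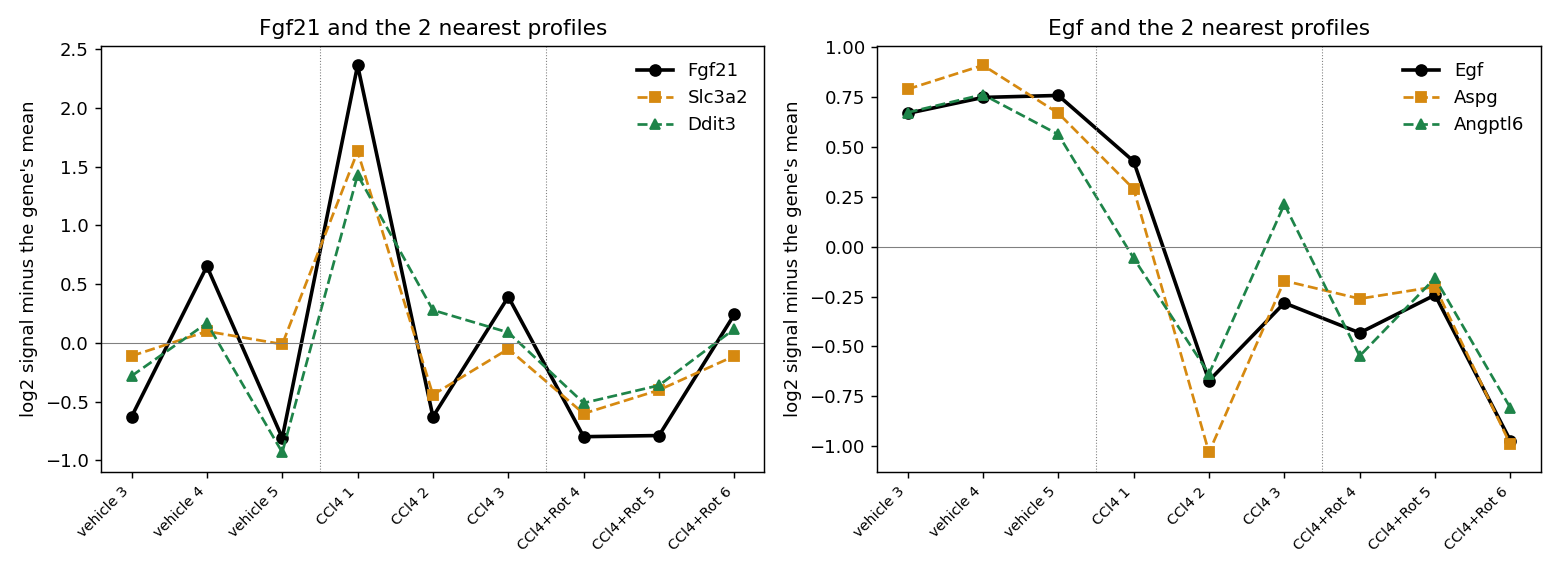
Log2 signal minus the gene's own mean over the 9 livers, for Fgf21 (left) and Egf (right) and the 2 genes with the nearest profile to each; dotted lines part the groups. Fgf21, Slc3a2 and Ddit3 are highest in CCl4 replicate 1, and Egf, Aspg and Angptl6 are highest in the 3 vehicle livers.

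On the ATF4 list, no gene was called by limma. In CCl4 livers, 14 of the 16 genes were higher than in vehicle, with a median of 0.78 against 0.18 over all probe sets. Of the 16, 6 had an unadjusted p below 0.05 in limma, all higher, against 12.4% of all probe sets. Without CCl4 replicate 3 the counts were 14 and 5, with a median of 0.75, against 11.5% and a median of 0.01 over all probe sets. Without CCl4 replicate 1, the array highest for Fgf21, they were 12 and 5, with a median of 0.49. The trended and robust fit called 1 of them, Psat1, an enzyme of serine synthesis, and the call was lost without CCl4 replicate 3. The 3 with the smallest p were Psat1, Slc7a11 (the cystine transporter) and Phgdh (the first enzyme of serine synthesis). None of these had a present call in a vehicle liver, and they were present on 2, 2 and 1 of the 3 CCl4 arrays. Only bounds on the group means are therefore given, with CCl4 3.89-fold, 3.33-fold and 5.30-fold brighter (limma adjusted p = 0.231, 0.249 and 0.249). These bounds do not allow for the spread between livers. Between CCl4+Rot and CCl4, 15 of 16 were lower with a median of -0.73, against -0.12 over all probe sets. Of the 16, 1 had an unadjusted p below 0.05, against 6.63% of all probe sets. Without CCl4 replicate 3 the values were 13, -0.83 and 3, against 6.56% of all probe sets. Without CCl4 replicate 1 they were 13, -0.37 and 1. For the fit without CCl4 replicate 1, no share or median over all probe sets is given in either comparison. Its counts and medians therefore cannot be set against a background. Both comparisons share the CCl4 livers, so the opposite signs are not independent. The mean log2 signal of the list was 8.27 to 8.46 in vehicle livers, 10.06, 8.76 and 9.26 in CCl4 livers and 8.53 to 8.74 in CCl4+Rot livers, with CCl4 replicate 1 highest as for Fgf21. On the PPAR-alpha list, the other control arm of Fgf21, limma called none of the 14 genes measured. Between CCl4 and vehicle, 5 were higher and 9 lower, with a median of -0.25. Cpt1a, the carnitine palmitoyltransferase of fatty acid entry into mitochondria, was at -1.06, and Angptl4, an inhibitor of lipoprotein lipase, was at -0.92. On the higher side, CCl4 and vehicle did not overlap for Vnn1, a pantetheinase (0.97), or Plin2, a lipid droplet coat protein (0.36). The same held for Acot1, an acyl-CoA thioesterase with no present call in vehicle livers. Its bound on the group means was 6.23-fold brighter in CCl4 livers (limma adjusted p = 0.431). Between CCl4 and vehicle, the trended and robust fit called Cpt1a alone, and not without CCl4 replicate 3. Over both CCl4-treated groups against vehicle, the same fit called Cpt1a at -0.83 (adjusted p = 0.0494). That call was kept without CCl4 replicate 3, at -0.69.

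Among the receptors, Met gave 7.69, 7.66 and 7.61 in vehicle livers, 7.22, 6.92 and 8.21 in CCl4 livers and 7.88, 7.30 and 7.54 in CCl4+Rot livers. Its call was present on every vehicle and CCl4+Rot array and on CCl4 replicate 1. On CCl4 replicates 2 and 3, its lowest and highest values, the call was marginal. The vehicle livers lay close together, and the CCl4 livers lay on both sides of them, with CCl4 replicate 3 the highest of all. The change between CCl4 and vehicle was -0.20 (95% interval -0.99 to 0.58), and without that array it was -0.59 (limma adjusted p = 0.373). Between CCl4+Rot and CCl4 it was 0.12 (95% interval -0.66 to 0.91), and without that array 0.50 (limma adjusted p = 0.757). The profiles nearest to Met were those of LOC257642 and Mfap3 (root mean square differences of 0.159 and 0.162 log2 units).

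Egfr gave 11.02, 11.80 and 11.34 in vehicle livers, 11.56, 10.59 and 10.11 in CCl4 livers and 10.74, 10.84 and 11.33 in CCl4+Rot livers, all present. The groups overlapped, and CCl4 replicate 3 was lowest. Its nearest profiles were those of Wbp1l and of Usp7, a deubiquitinase (root mean square differences of 0.213 and 0.228 log2 units). The change was -0.64 (95% interval -1.56 to 0.29) between CCl4 and vehicle and 0.22 (95% interval -0.71 to 1.14) between CCl4+Rot and CCl4. Without CCl4 replicate 3 these were -0.32 and -0.11. Between CCl4+Rot and vehicle Egfr was at -0.42 (95% interval -1.35 to 0.50). The dimmer probe set gave 7.71, 7.95 and 8.07 in vehicle livers, above all 6 CCl4-treated livers, which ran from 7.21 to 7.50. This probe set was present on 3 vehicle, 1 CCl4 and 2 CCl4+Rot arrays and absent on the rest, so part of the treated signal was not detected. It was lower by 0.56 on the log2 scale in the CCl4-treated groups together (95% interval -0.89 to -0.23), with a limma adjusted p of 0.216, and 0.227 in the trended and robust fit. Both probe sets were therefore lower on average in the treated groups, and neither was called.

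Fgfr4 had the smallest SD over the 9 arrays of any member (0.13). It gave 9.52, 9.57 and 9.38 in vehicle livers, 9.14, 9.24 and 9.31 in CCl4 livers and 9.42, 9.22 and 9.42 in CCl4+Rot livers. The CCl4 livers lay below the vehicle livers without overlap, with a change of -0.26 (95% interval -0.61 to 0.09, limma adjusted p = 0.517), and the CCl4+Rot livers overlapped both. Its nearest profiles were those of Rcbtb1 and Tmem219 (root mean square differences of 0.0467 and 0.0521 log2 units). As a fold, the interval reaches from 0.655 to 1.07 times the vehicle signal. On the FGFR4 and bile acid list, 3 of 9 genes were higher and 6 lower between CCl4 and vehicle, with a median of -0.21. Cyp7a1, the rate-limiting enzyme of bile acid synthesis that FGFR4 signalling represses, had the smallest p, at 0.90 between CCl4 and vehicle and 0.83 between CCl4+Rot and vehicle. The trended and robust fit called it over both CCl4-treated groups (0.86, adjusted p = 0.0462), and not without CCl4 replicate 3. Other enzymes and regulators of the list had the opposite sign between CCl4 and vehicle, with Cyp8b1, which sets the cholic acid share, at -0.54, Cyp27a1, which starts the alternative route of bile acid synthesis, at -0.38 and Nr5a2, the nuclear receptor LRH-1, at -0.30. No gene of the 9 measured was called by limma in any comparison. Of the other 14 FGF ligands, receptors and co-receptors measured, 8 were present on fewer than 3 arrays, and none was called. Flrt2, a membrane protein that binds FGF receptors, was at 1.56 and Fgfr2 at 0.68 between CCl4+Rot and vehicle, with the smallest p of that list.

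Errfi1 was present on all 9 arrays, at 13.89, 14.23 and 14.15 in vehicle livers, 14.06, 13.91 and 13.41 in CCl4 livers and 14.25, 14.04 and 13.87 in CCl4+Rot livers. The groups overlapped, with CCl4 replicate 3 lowest. The change was -0.30 (95% interval -0.82 to 0.22) between CCl4 and vehicle, -0.11 without that array, and 0.26 (95% interval -0.26 to 0.79) between CCl4+Rot and CCl4. Its nearest profiles were Cyp4f1, a fatty acid hydroxylase, and Mccc1, a subunit of the leucine-degrading carboxylase. Of 10 other receptor brakes measured, none was called. None had an unadjusted p below 0.05 between CCl4 and vehicle, where 12.4% of all probe sets did.

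**Figure D3:**
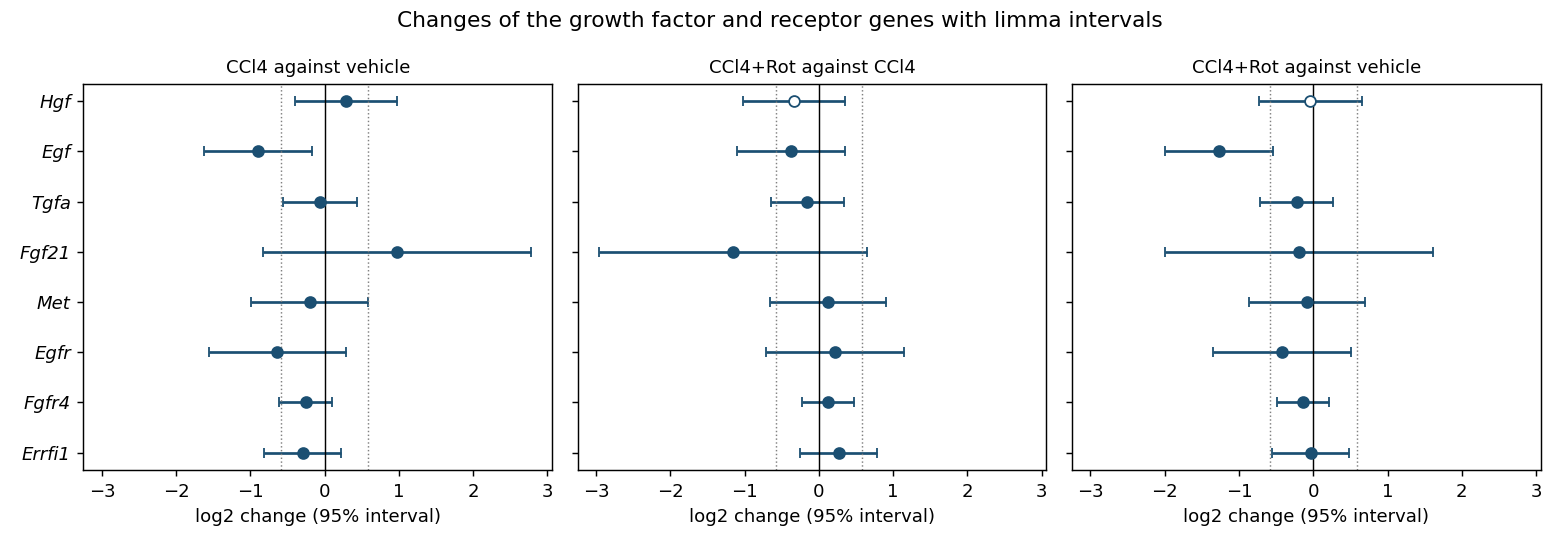
Log2 change (points) with its 95% limma interval (bars) for the 8 members with a fold or bound, in 3 comparisons; dotted lines stand at 1.5-fold and open points are Hgf against a group with no present call. The interval of Egf lies below 0 in both comparisons with vehicle, and every other interval spans 0.

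The genes around these ligands and receptors were read from lists. Of 17 genes of HGF activation and MET adaptors, limma called none. Plaur, the urokinase receptor, was called by the trended and robust fit between CCl4 and vehicle, but was present on 0 of 9 arrays and gets no fold. St14, the matriptase that can activate HGF, was at 1.10 in CCl4 livers (limma adjusted p = 0.285) and F12, coagulation factor XII, at -0.48 (limma adjusted p = 0.311). Of the 8 other ERBB ligands and receptors, only 2 were present on 3 or more arrays, among them the ERBB3 and ERBB4 ligand Nrg1, at 1.70 in CCl4 and 1.07 in CCl4+Rot livers (limma adjusted p = 0.252 and 0.594). On the shedding list, Adam17, the main protease that releases EGF receptor ligands, was at 0.53 and Timp3, its inhibitor, at -0.65 in CCl4 livers. Their limma adjusted p values were 0.308 and 0.328, and the trended and robust fit called neither. Timp3 was at 0.76 between CCl4+Rot and CCl4 (limma adjusted p = 0.708).

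The ERK feedback and early response list holds genes that lie downstream of MET and the EGF receptor. Fos, Spred1 and Spred2 of that list were not matched to a probe set, and 19 genes were measured. Between CCl4 and vehicle, 0 of them had an unadjusted p below 0.05, against 12.4% of all probe sets. Between CCl4+Rot and CCl4, 3 did, all lower, against 6.63%, and 1 did without CCl4 replicate 3, against 6.56%. They were the AP-1 genes Fosl1 at -1.22, Junb at -0.91 and Fosl2, which was present on 0 arrays and gets no fold. On the list of other hepatocyte mitogens and regeneration genes, 8 of 20 were higher and 2 lower at an unadjusted p below 0.05 between CCl4 and vehicle. Without CCl4 replicate 3 the counts were 4 and 1. The shares of all probe sets, higher and lower together, were 12.4% and 11.5% in the same order. The trended and robust fit called the proliferation genes Mki67 at 2.05 and Ccna2 at 3.21, and neither without CCl4 replicate 3. Limma called none of the 20.

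**Figure D4:**
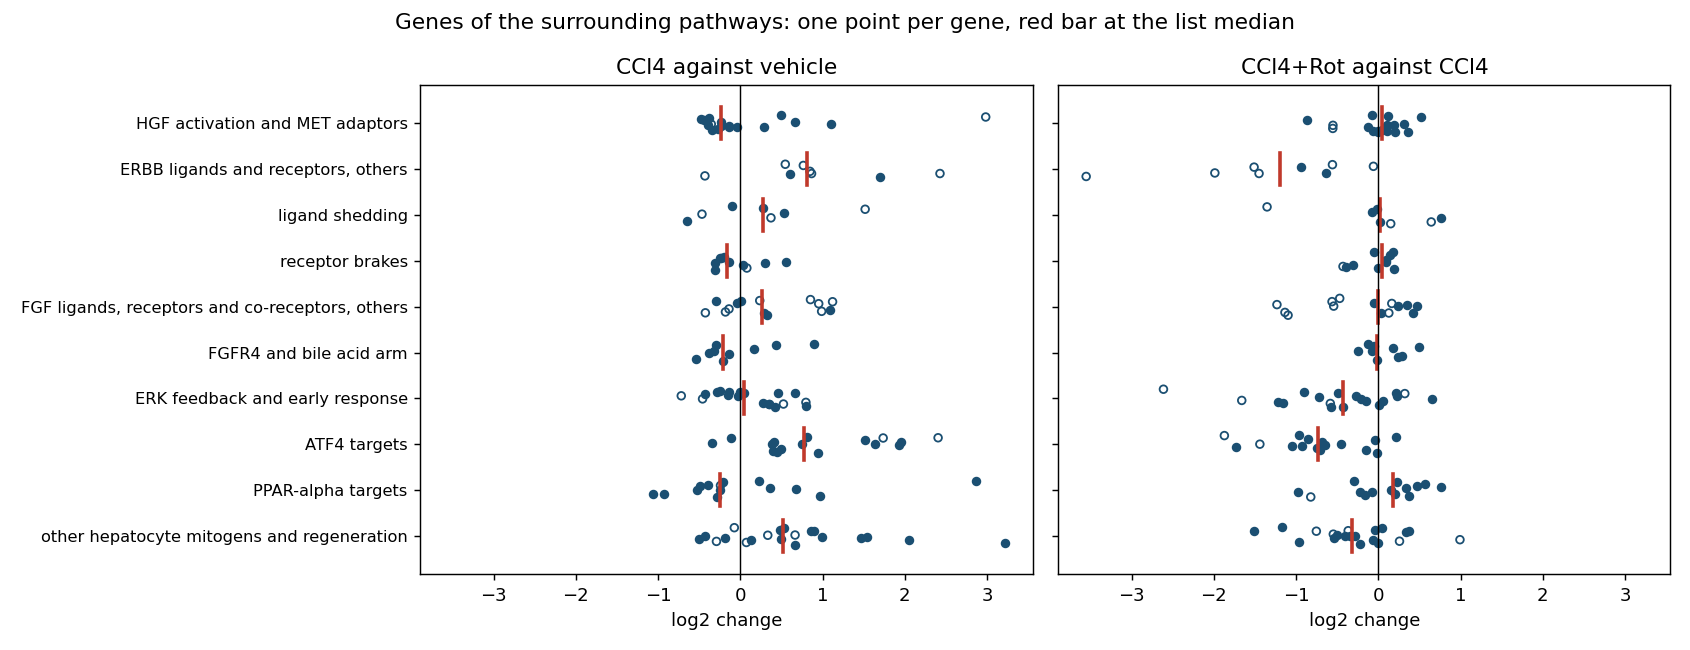
Log2 change of each gene on the 10 pathway lists between CCl4 and vehicle (left) and between CCl4+Rot and CCl4 (right). Filled points were present on 3 or more arrays, open points on fewer, and the red bar is the list median, at 0.78 and -0.73 for the ATF4 targets.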

How the data were processed

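Liver RNA of 9 rats was hybridised to Affymetrix rat expression arrays. The authors deposited 1 table of log2 signals and detection calls (present, marginal or absent, a category with no score scale). The submitters' processing notes name MAS5 and affy, with no versions. Trimmed by 2% at each end, the antilogs of each array average 500.0, and array quantiles differ. The genome build behind the table is not given in the sources used here, so its chromosomes are not printed.

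The deposited log2 values were fitted as they stand in limma 3.58.1 (R 4.3.3), as 1 model of 3 group means, after 57 control probe sets were left out of 31099. Benjamini-Hochberg adjustment ran over the remaining 31042. The trended and robust fit is the same model with eBayes(trend, robust). With 3 arrays against 3 the smallest two-sided exact permutation p is 0.1. Each group is 3 separately labelled livers, and the number of arrays limits the precision. Each gene was read by its brightest probe set. A gene present on no array of either group gets no fold. One present in 1 group gets a bound, with each signal of the other group raised to at least the lowest present signal of its array, and no fold where the bound is under 1. A bound compares group means and does not allow for the spread between livers.

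The members and the gene lists were chosen with earlier results of these data known. Of 209 list entries, 23 had no match in the table. All 10 members, the genes of each list that were called or had the 3 smallest p-values, and the 2 nearest profiles of each member present on at least 5 arrays were named. Other genes named from the lists were chosen after their values were seen. The values of 1 gene that this rule names are not reported here. Promoters are from RefSeq (GRCr8, all 10 members matched). The fit was tested on simulated data. Alternatives changed the normalization, signal floor, detection filter, spread, array weights, probe set, test and the arrays used.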

Additional observations from a re-analysis of the deposited data

How the results depend on the processing

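Of 644 alternative values for the members' log2 changes, 606 kept their direction and their side of the threshold, 32 changed sign and 6, all of Egf, passed it. In the order CCl4 against vehicle, CCl4+Rot against CCl4, CCl4+Rot against vehicle and both CCl4-treated groups against vehicle, limma called 0, 1, 8 and 3 probe sets. The counts were 0, 0, 3 and 4 after quantile normalization, 0, 1, 2 and 3 with arrays centred on their medians, 5, 0, 3 and 3 with signals below 6 raised to 6, and 78, 0, 63 and 303 among probe sets present on at least 3 arrays. They were 348, 1, 241 and 564 with a trended and robust spread, 0, 1, 73 and 403 with array weights, and 313, 11, 365 and 606 with the trended and robust spread without CCl4 replicate 3, an alternative chosen after seeing the data. With only the groups compared, the first 3 were 0, 0 and 1. The methods' t-test gave 1774, 851, 2126 and 2107 unadjusted and 0, 0, 0 and 1 after Benjamini-Hochberg adjustment. Members called were 1 in the last 2 comparisons with the trended and robust spread, 1 in the last alone without CCl4 replicate 3, and 1 in each comparison with vehicle by the unadjusted t-test. Leaving out 1 array at a time gave 0 to 0, 0 to 2, 0 to 24 and 0 to 5 probe sets and 0 members. The cause of these shifts was not tested.

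Egf stayed lower in the treated groups throughout, at -1.42 to -1.06 for CCl4+Rot, -1.20 to -0.65 for CCl4 and -1.23 to -0.96 for both with 1 array left out. It passed at -1.27 and -1.08 with the trended and robust spread, at -1.06 for both groups without CCl4 replicate 3, and at -0.90, -1.27 and -1.08 by the unadjusted t-test. Signs turned for small changes. Quantile normalization gave Hgf -0.13 (CCl4) and -0.14 (both groups) and Errfi1 0.050 (CCl4+Rot against vehicle). Centring gave Hgf -0.065 and -0.11 and Tgfa 0.090 (CCl4+Rot against CCl4). Array weights gave Tgfa 0.18 (CCl4) and Fgf21 -0.075 (both groups). The trended and robust spread without CCl4 replicate 3 gave Tgfa 0.029 (CCl4) and Egfr -0.11 (CCl4+Rot against CCl4). Averaging probe sets gave Tgfa 0.013 (CCl4), and its other probe set 0.090, 0.044, 0.13 and 0.11. With 1 array left out, the ranges that crossed 0 were Tgfa -0.26 to 0.043 (CCl4), Met -0.59 to 0.060 (CCl4), Tgfa -0.26 to 0.038 (CCl4+Rot against CCl4), Met -0.14 to 0.50 (CCl4+Rot against CCl4), Egfr -0.11 to 0.62 (CCl4+Rot against CCl4), Hgf -0.22 to 0.090 (CCl4+Rot against vehicle), Fgf21 -0.53 to 0.27 (CCl4+Rot against vehicle), Met -0.23 to 0.055 (CCl4+Rot against vehicle), Errfi1 -0.14 to 0.058 (CCl4+Rot against vehicle), Hgf -0.055 to 0.26 (both groups) and Fgf21 -0.022 to 0.85 (both groups).

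The labels give some groups the same replicate numbers. With the number as a replicate block, the counts were 0, 1, 8 and 3, as without it. The deviations of same-numbered livers correlated at -0.09, -0.005 and -0.013, so no shared deviation was seen and the livers were not treated as pairs. These correlations cannot show what the numbers stand for.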
